A study of Mus musculus with 16 samples.

Results

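The genes described here are those named for the proteins of the cytosolic ribosome. They were taken by symbol from the deposited tables, as all rows whose name has the form Rpl or Rps followed by a number and at most a short letter ending, together with Rplp0, Rplp1, Rplp2 and Rpsa, with pseudogenes written with a hyphen left out. Of the 53090 genes in the tables, 83 had such a symbol and 82 of them had a count, 50 of the large subunit and 32 of the small subunit. The row without any count was Rpl10l. Of the 82 genes 80 are annotated as protein coding, while Rpl6l and Rps4l are annotated as processed pseudogenes. RNA was sequenced from 16 libraries in 4 groups of 4, which are naïve CD4+ T cells freshly isolated from the spleen (Tn) of WT mice and of Aim2-/- mice, and CD4+ T cells of the same genotypes after 48 h of culture in Treg conditions (Treg). The culture held anti-CD3/CD28 antibodies, recombinant human TGF-beta and recombinant mouse IL-2. All mice were C57BL/6 or on that background and were matched for age and sex, with no age given, and the naïve cells had been selected as CD44 low and CD62L high. The labels number the libraries of a group from 1 to 4 but do not say that each came from its own mouse, so the p-values measure the spread between these libraries only.

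A ribosome has a small subunit, which reads the mRNA, and a large subunit, which joins the amino acids, and each is a shell of proteins around ribosomal RNA. Most of these proteins are needed in equal numbers in each particle, and their mRNAs are among the most abundant of a resting lymphocyte. Many of these mRNAs begin with a C and a run of C and T letters, the terminal oligopyrimidine (TOP) tract, through which the growth kinase mTOR and the RNA-binding protein LARP1 adjust how well they are translated. A naïve T cell is small and quiescent, and stimulation of its receptor starts growth and the building of new ribosomes.

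The total of expected counts was between 22516424 and 34533316 per library, so that 3 counts, taken as the floor, stood for 0.0869 to 0.127 CPM (counts scaled to a common library size with TMM factors), a limit that covers counting error only. Aim2, the targeted gene, was at 37.9, 36.9, 32.3 and 33.2 CPM in WT Tn replicates 1 to 4 and at 9.26, 6.77, 6.61 and 6.99 CPM in Aim2-/- Tn, and at 35.7, 40.8, 43.3 and 39.9 CPM in WT Treg and 10.8, 9.95, 8.86 and 7.17 CPM in Aim2-/- Treg. The groups did not overlap in either state. The markers of the labelled cells followed the labels in both genotypes. Summed over Cd3e, Cd3g, Cd4 and Lck, the T cell markers were at no less than 1340 CPM in any library. Il2ra, the high-affinity IL-2 receptor chain, had a mean of 3.46 CPM in WT Tn and 1452 CPM in WT Treg, and Foxp3 of 2.74 and 477 CPM. In Aim2-/- the means in Tn and Treg were 3.47 and 1374 CPM for Il2ra and 2.92 and 425 CPM for Foxp3. Foxp3 was uneven among the Treg libraries, at 560, 573, 496 and 278 CPM in WT replicates 1 to 4 and 560, 523, 329 and 288 CPM in Aim2-/-. Marker lists of other cells were low and moved with the culture in WT. The summed level ranged over the libraries from 12.1 to 19.6 CPM in WT Tn and from 2.26 to 2.50 CPM in WT Treg for 5 myeloid genes, from 1.07 to 1.60 and 0.407 to 0.810 CPM for 5 B cell genes, from 0.949 to 2.66 and 0.181 to 0.296 CPM for 5 erythroid genes, from 8.94 to 12.2 and 2.26 to 4.01 CPM for 2 CD8 genes, and from 1.78 to 6.42 and 0 to 0.0675 CPM for 2 NK genes. Ms4a1 was at 0 in all libraries, and Lyz2, Hba-a1 and Ncr1 were at 0 in all 8 Treg libraries. Ncr1 was already at 0 in WT Tn replicates 1 to 3. Not every gene followed its sum in WT. Cd8a had a mean of 0.0725 CPM in WT Tn, under the floor, and 0.233 CPM in WT Treg.

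In WT cells the ribosomal protein genes held less of the library after 2 days of Treg culture than in naïve cells. Their summed share of all expected counts was 15.7%, 15.2%, 15.3% and 14.8% in WT Tn replicates 1 to 4 and 11.1%, 10.8%, 10.6% and 10.9% in WT Treg. The Aim2-/- Tn libraries held 16.7%, 14.2%, 18.9% and 16.6%, against 11.2%, 11.0%, 11.3% and 10.9% for Aim2-/- Treg. Every Treg library lay below every Tn library, and the ratio of the mean shares was 0.711 in WT and 0.669 in Aim2-/-. Both subunits took part, with means of 8.57% ± 0.188 and 6.43% ± 0.0985 for the large subunit in WT Tn and WT Treg, and of 6.67% ± 0.198 and 4.41% ± 0.0904 for the small subunit (SD, n = 4 each). The 95% Wilson interval of each library's share was at most 0.015 percentage points to either side, so the spread between libraries and not the counting error sets the precision. No p is given for this sum. A share is relative to the rest of the library, and in bulk samples fewer cells of a type and less RNA per cell cannot be told apart.

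**Figure D1:**
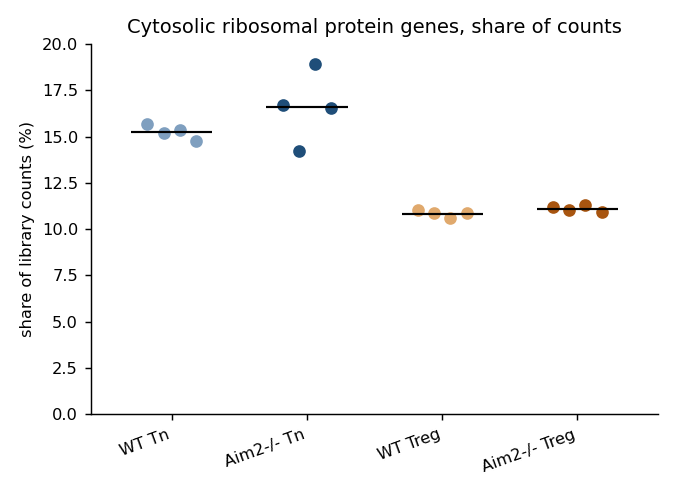
Share of all expected counts held by the 82 ribosomal protein genes, in percent, with a point for each library and a line at the mean of the 4 libraries of a group. The WT Treg libraries lie between 10.6% and 11.1% and the WT Tn libraries between 14.8% and 15.7%, and the Aim2-/- Tn libraries have the widest range, from 14.2% to 18.9%.

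Set against naïve cells gene by gene, the cultured WT cells show which ribosomal protein genes differ after 48 h in Treg conditions. The stimulation, the cytokines and the time in culture cannot be told apart in this design. A gene is said to fall or rise relative to the rest of the library, since RNA per cell is not known from these data. Of 81 genes tested, 59 fell and 7 rose in edgeR (quasi-likelihood, Benjamini-Hochberg adjusted p), and 15 did not pass the threshold. Over all 13675 genes tested, 39.2% were called lower and 37.7% higher. The median log2 fold change was -0.52 for the ribosomal protein genes and -0.05 for all genes. In Aim2-/- cells 58 of 81 fell and 2 rose, beside 40.2% and 39.1% of 13713 genes, with medians of -0.58 and -0.04. All 58 genes that fell in Aim2-/- had fallen in WT, with Rplp0 called in WT alone, and both genes that rose in Aim2-/- had risen in WT. That Rplp0 and 5 of the genes that rose passed the test in WT alone does not show a difference between the genotypes, since no ribosomal protein gene passed the test of the difference, given further on. For 58 of the 81 genes every WT Treg library lay below every WT Tn library and for 11 it lay above, beside 35.7% and 37.2% of all genes. In Aim2-/- 54 lay below and 2 above, beside 37.5% and 37.3% of all genes. At an unadjusted p under 0.05 in edgeR, 67 of 81 differed in WT and 62 of 81 in Aim2-/-, beside 78.3% and 80.4% of all genes. A correction for GC content and length in each library brought the median to -0.35 in WT and to -0.32 in Aim2-/-, where 10 genes then rose and 56 fell. Outside the list, genes with a coding transcript under 1000 nucleotides had a median of 0.27 in WT and 0.19 in Aim2-/-. Those with 3000 nucleotides or more had -0.05 and 0.03.

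The decrease was uneven within the particle. Among the 32 small-subunit genes 26 fell, 5 rose and 1 did not pass the test in WT, with a median log2 fold change of -0.64. Among 49 large-subunit genes tested 33 fell, 2 rose and 14 did not pass, with a median of -0.39. Without the paralogues, 26 of 30 small-subunit genes fell and 3 rose, with a median of -0.67. In the large subunit 33 of 46 then fell and 2 rose, with a median of -0.40. Of the 9 genes with a log2 fold change below -1, 8 belonged to the small subunit. No test of the difference between the subunits was made.

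**Figure D2:**
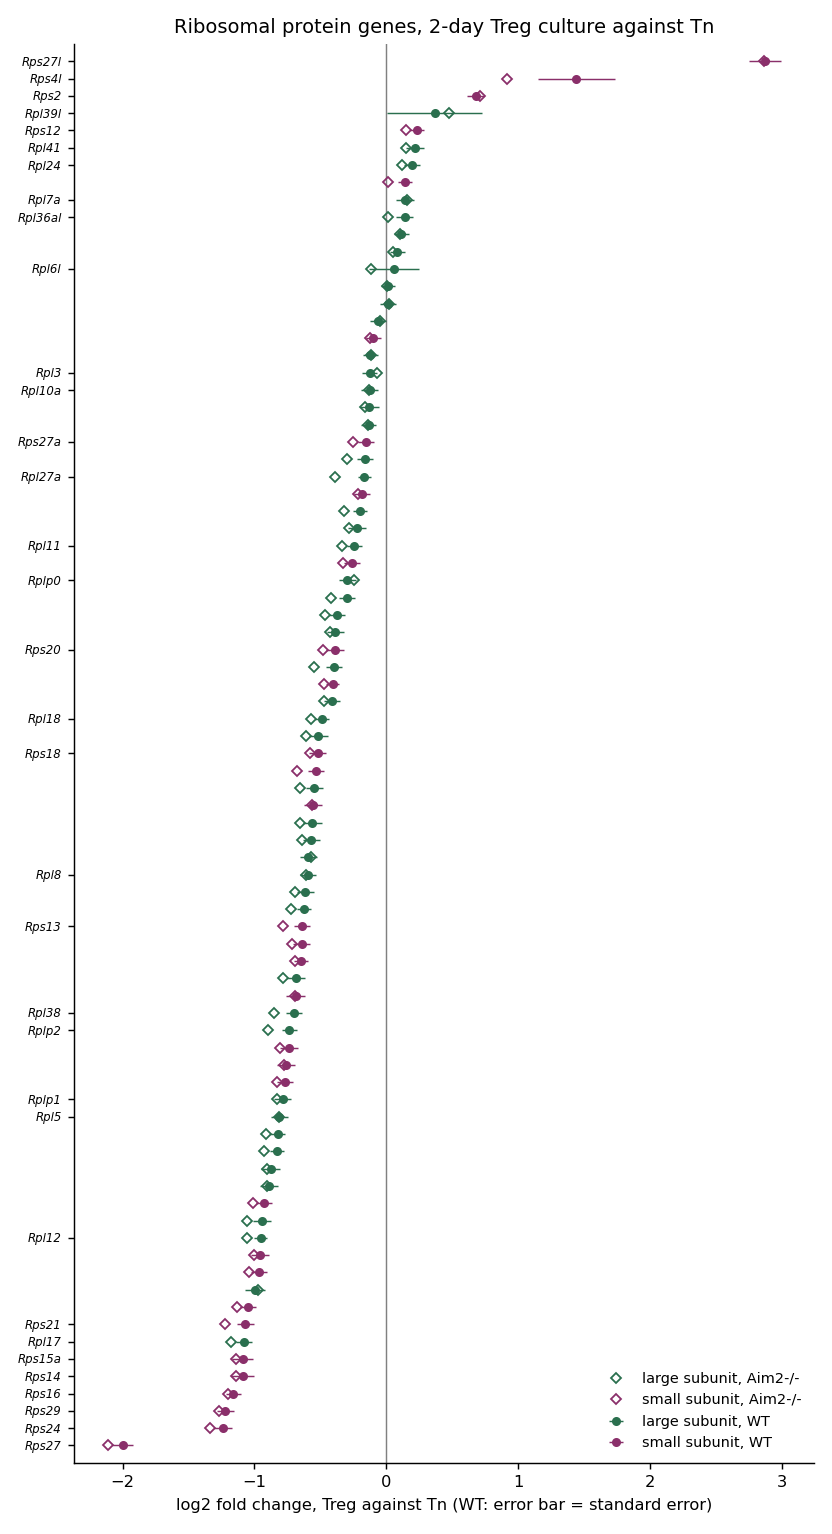
Log2 fold change of Treg against Tn for the 81 ribosomal protein genes tested, ordered by the value in WT. Filled circles are WT with the standard error, open diamonds are Aim2-/-, and colour marks the subunit. Symbols are printed for the genes named by rule. The values run from -2.0 for Rps27 to 2.87 for Rps27l in WT.

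Rps27, which encodes a zinc finger protein of the small subunit, fell the most. Its level was 3084, 2997, 2575 and 2527 CPM in WT Tn replicates 1 to 4 and 748, 715, 694 and 706 CPM in WT Treg. It was 3089, 2673, 3726 and 3175 CPM in Aim2-/- Tn and 757, 750.2, 741 and 715 CPM in Aim2-/- Treg. All 8 Treg libraries were far below all 8 Tn libraries. The log2 fold change was -2.0 in WT (standard error 0.079, edgeR adjusted p = 1.8e-08) and -2.11 in Aim2-/- (standard error 0.1, edgeR adjusted p = 7.5e-09). Rps27 lies on the minus strand of chromosome 3 from 90212522 to 90213651 (GRCm38), and its counts were not whole in 15 libraries, as RSEM gives where it divides reads between genes.

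Rps27l, the paralogue of Rps27 that is known as a target of p53, moved the other way. It was at 12.3, 10.8, 16 and 12.5 CPM in WT Tn and 92.9, 93.3, 97.7 and 101 CPM in WT Treg. In Aim2-/- cells the values were 12.4, 12.7, 16.7 and 14.1 CPM in Tn and 90.4, 99.3, 107 and 112 CPM in Treg. The states did not overlap, and the level was 7.29 times as high in WT Treg as in WT Tn (log2 fold change 2.87, standard error 0.12, edgeR adjusted p = 2.2e-08) and 7.24 times as high in Aim2-/- (log2 fold change 2.86, edgeR adjusted p = 1.4e-09). Rps27l lies on the plus strand of chromosome 9 from 66946086 to 66949516, and its counts were whole numbers in all 16 libraries. As a share of the counts of the pair, Rps27l made up 0.397%, 0.360%, 0.618% and 0.493% in WT Tn and 11.1%, 11.5%, 12.3% and 12.5% in WT Treg. In Aim2-/- it made up 0.401%, 0.474%, 0.447% and 0.443% in Tn and 10.7%, 11.7%, 12.6% and 13.5% in Treg. Rps27 thus remained the more abundant of the pair in every library.

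**Figure D3:**
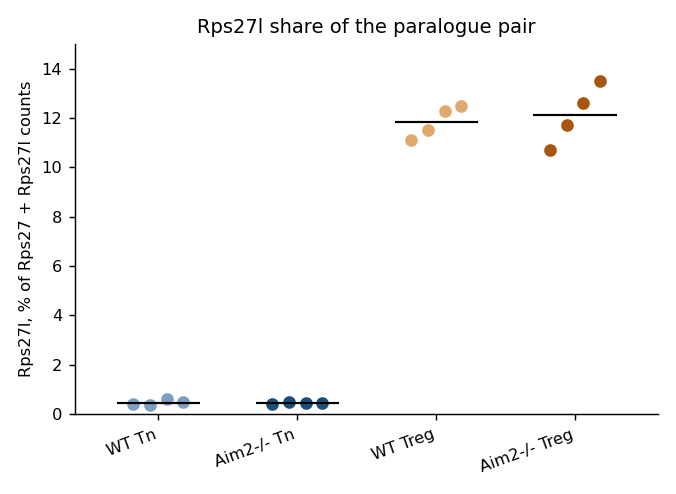
Rps27l counts as a percentage of the summed counts of Rps27 and Rps27l, with a point for each library and a line at the group mean. The means are 0.467% in WT Tn, 0.441% in Aim2-/- Tn, 11.9% in WT Treg and 12.1% in Aim2-/- Treg.

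Of the other paralogues in the list, all but Rpl36al were scarce. Rps4l, annotated as a transcribed processed pseudogene, was at 0.518, 0.356, 0.549 and 0.511 CPM in WT Tn and 0.810, 1.48, 1.48 and 1.63 CPM in WT Treg and rose (log2 fold change 1.44, standard error 0.29, edgeR adjusted p = 0.0012). In Aim2-/- it was at 0.862, 0.882, 0.676 and 0.886 CPM in Tn and 0.717, 0.934, 1.95 and 2.71 CPM in Treg, where the states overlapped (log2 fold change 0.92, edgeR adjusted p = 0.052). These levels rest on 9 to 73 counts in a library. Rpl39l, a paralogue of Rpl39 best known from the testis, had 6 to 41 counts in a library and a log2 fold change of 0.37 in WT (standard error 0.36, edgeR adjusted p = 0.37). Rpl36al, a copy of Rpl36a, was at 226 ± 10.4 CPM in WT Tn and 254 ± 12 CPM in WT Treg (SD, n = 4 each) and did not pass the test either (edgeR adjusted p = 0.074). Rpl3l, the form of Rpl3 found in muscle, had 3 counts in WT Treg replicate 1, 2 in WT Treg replicate 4 and 0 in the other 14 libraries, which is at or under the floor, and it was not tested.

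Rps24, Rps29 and Rps16 followed Rps27 among the genes that fell. Rps24, a small-subunit gene mutated in some cases of Diamond-Blackfan anaemia, was at 4239, 3956, 3655 and 3492 CPM in WT Tn and 1722, 1643, 1630.2 and 1639 CPM in WT Treg. The Aim2-/- libraries had 3994, 3669, 5094 and 4372 CPM in Tn and 1746, 1708, 1673 and 1671 CPM in Treg. No Treg library reached the lowest Tn library, and the log2 fold change was -1.24 in WT and -1.34 in Aim2-/- (edgeR adjusted p = 1.4e-07 and 3e-07). Rps29, a zinc-binding protein of the head of the small subunit, was at 2234, 2235, 2042 and 1964 CPM in WT Tn and 952, 955, 879 and 929 CPM in WT Treg. Its log2 fold change was -1.22 in WT and -1.27 in Aim2-/- (edgeR adjusted p = 1e-07 and 2.2e-07). Rps16 had log2 fold changes of -1.16 and -1.20, Rps15a of -1.09 and -1.14, Rps14 of -1.09 and -1.14, Rpl17 of -1.08 and -1.18, and Rps21 of -1.07 and -1.22, in WT and Aim2-/- respectively. These 5 fell in both genotypes, with edgeR adjusted p of at most 3e-06 each, and their groups did not overlap. Rpl17, at the mouth of the tunnel through which the new chain leaves, was the large-subunit gene that fell the most in WT.

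Few genes rose. Rps2, a core protein at the mRNA entry of the small subunit, was at 1724, 1754, 1542 and 1518 CPM in WT Tn and 2587, 2752, 2596 and 2744 CPM in WT Treg. In Aim2-/- it was at 1825, 1427, 1980.5 and 1586 CPM in Tn and 2677, 2835, 2899.8 and 2835 CPM in Treg. Every Treg library exceeded every Tn library, with log2 fold changes of 0.68 in WT and 0.71 in Aim2-/- (edgeR adjusted p = 6e-06 and 6.3e-05). Rps12, Rpl41, Rpl24 and Rps26 rose by less in WT, with log2 fold changes of 0.23, 0.22, 0.19 and 0.14 (edgeR adjusted p = 0.0032, 0.013, 0.016 and 0.027). In Aim2-/- the same genes had 0.15, 0.15, 0.12 and 0.02 and did not pass the test. Rpl41 codes for the smallest protein of the ribosome, and Rps26 was named after its values were seen. Rpl7a had a log2 fold change of 0.14 in WT and 0.16 in Aim2-/- and was not called in either (edgeR adjusted p = 0.086 and 0.18). The same holds for Rpl3, a core protein of the large subunit next to the catalytic centre, at 3080.4 ± 206 CPM in WT Tn and 2884 ± 44.0 CPM in WT Treg (SD, n = 4 each, log2 fold change -0.13, edgeR adjusted p = 0.066).

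**Figure D4:**
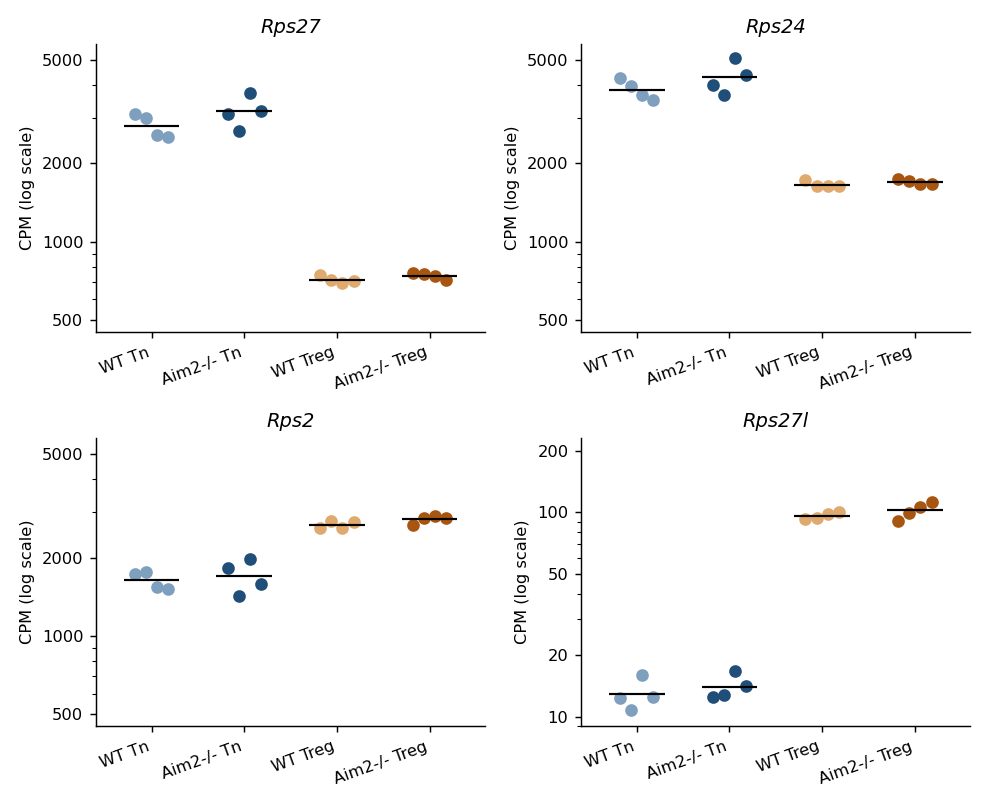
Level of Rps27, Rps24, Rps2 and Rps27l in CPM on a log axis, with a point for each library and a line at the group mean. Rps27 and Rps24 are lower and Rps2 and Rps27l higher in every Treg library than in every Tn library of the same genotype.

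The stalk, the flexible arm of the large subunit that recruits translation factors, had all 4 of its genes fall in WT, with a median log2 fold change of -0.76. Rpl12, at its base, was at 3774, 3864, 3618 and 3611 CPM in WT Tn and 2022, 2000.4, 1855 and 1966 CPM in WT Treg and fell the most (log2 fold change -0.95, edgeR adjusted p = 1.3e-07). The acidic proteins Rplp1 and Rplp2 had -0.79 and -0.74, while their anchor Rplp0 had -0.29 (edgeR adjusted p = 2.6e-06, 1.8e-06 and 0.0017). In Aim2-/- the values were -1.06, -0.83, -0.90 and -0.25 for Rpl12, Rplp1, Rplp2 and Rplp0, and the last did not pass (edgeR adjusted p = 0.058). Of the proteins that carry the smallest ribosomal RNA and that can bind MDM2, the inhibitor of p53, Rpl5 fell by more than Rpl11. Rpl5 was at 4174, 3782, 3737 and 3458 CPM in WT Tn and 2239, 2208, 2170.4 and 2206 CPM in WT Treg (log2 fold change -0.81, edgeR adjusted p = 1.4e-06). Rpl11 was at 1496, 1473, 1424 and 1361 CPM and 1286, 1264, 1172 and 1246 CPM (log2 fold change -0.24, edgeR adjusted p = 0.0028). Rps27a, made as a fusion with ubiquitin, had -0.16 in WT and -0.26 in Aim2-/- (edgeR adjusted p = 0.038 and 0.024). Around the exit tunnel 9 of 10 genes fell and 1 did not pass in WT, with a median of -0.57, and in the head of the small subunit 12 of 14 fell, 1 rose and 1 did not pass, with a median of -0.66.

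Ribosomal genes whose symbols lie outside the naming rule were read beside them. Of 7 such genes, 5 fell and 1 rose in WT. Fau, whose product is cut into a small-subunit protein and a ubiquitin-like protein, was at 1482, 1555, 1424 and 1314 CPM in WT Tn and 696, 689, 638 and 686 CPM in WT Treg (log2 fold change -1.12, edgeR adjusted p = 2.4e-07). Rps3a1 had -0.72 and Rack1, a scaffold on the small subunit, -0.36. Rps27rt, a retrogene copy of Rps27, had -2.72, from a mean of 14.7 CPM in WT Tn to 2.28 CPM in WT Treg. Whether some of its counts are reads of Rps27 was not tested. Rpl7l1, a nucleolar relative of Rpl7 that works in ribosome assembly, rose (log2 fold change 1.65, edgeR adjusted p = 2.8e-08), and Rpl22l1 was not called (edgeR adjusted p = 0.091).

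Among other mRNAs known to carry a TOP tract, more rose than fell. Of 17 translation factors and companions with such a tract, 10 rose, 3 fell and 4 did not pass in WT, with a median log2 fold change of 0.42. Tpt1, the translationally controlled tumour protein, fell (log2 fold change -1.42, edgeR adjusted p = 4.7e-07). Eif3f, an initiation factor subunit, and Eef1a1, the elongation factor that brings aminoacyl-tRNA, fell as well, with -0.48 and -0.40 (edgeR adjusted p = 7.5e-05 and 0.00042). Nap1l1, a histone chaperone, Npm1, a nucleolar assembly protein, and Eif3l, another initiation factor subunit, rose the most, with 2.12, 1.70 and 1.44 (edgeR adjusted p = 6e-09, 1.3e-07 and 3.6e-08). In Aim2-/- 9 rose, 2 fell and 6 did not pass, with a median of 0.34. Of 11 genes that act on the translation of such mRNAs, 8 rose and 3 fell in WT, with a median of 1.5. Eif4ebp1, the mTOR-regulated repressor of the cap-binding protein, rose the most (3.11, from a mean of 3.98 to 35.2 CPM), Eif4e and Larp4 had 1.75 and 1.64, and Rps6ka1, Rps6kb2 and Eif4ebp2 had -0.78, -0.60 and -0.37. Larp1 itself rose (log2 fold change 1.53, edgeR adjusted p = 7.7e-07). Of 8 chaperones and escorts that hold newly made ribosomal proteins, 5 rose, 1 fell and 2 did not pass, with a median of 0.62. Heatr3, Grwd1 and Ltv1 had 1.55, 1.45 and 0.96, while Aamp had -0.54, and Pdcd2 and Tsr2, which were not called, had -0.06 and 0.27. All these lists are read against the 37.7% of all genes called higher and the 39.2% called lower in WT.

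The start sites of the genes were read to see which letters the members that fell and those that rose have there. RefSeq (GRCm38.p6) held an entry for 60 of the 82 genes. The windows below run 15 bases to either side of the annotated start, 5′ to 3′ on the gene's strand, with the longest run of C and T letters in capitals. Among the genes with an entry, they show the 4 that fell the most in WT (Rps27, Rps24, Rps16 and Rps15a), the 2 that rose the most (Rps27l and Rps2) and Rpl7a, which was not called and has the longest run of all 60. Rps29 and Rps4l, which moved by more than some of these, had no entry.
Rps27 (chr3:90213634-90213663, minus strand): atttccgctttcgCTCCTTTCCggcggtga
Rps24 (chr14:24490663-24490692, plus strand): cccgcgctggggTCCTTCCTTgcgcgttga
Rps16 (chr7:28350674-28350703, plus strand): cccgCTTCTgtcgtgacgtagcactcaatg
Rps15a (chr7:118116133-118116162, minus strand): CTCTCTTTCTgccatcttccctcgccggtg
Rps27l (chr9:66946071-66946100, plus strand): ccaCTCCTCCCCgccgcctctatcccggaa
Rps2 (chr17:24720048-24720077, plus strand): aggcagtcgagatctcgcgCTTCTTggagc
Rpl7a (chr2:26910792-26910821, plus strand): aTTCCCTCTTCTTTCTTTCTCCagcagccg

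A run of at least 6 C and T letters in this window was found in 34 of the 60 genes (56.7%) and in 29.2% of all 32851 windows. The run was 9 letters in Rps27, in Rps24 and in Rps27l, and it was 21 letters in Rpl7a. It spans the annotated start in Rps27, Rps24 and Rpl7a. In Rps27l, Rps16 and Rps15a it ends before the start, and in Rps2 it begins after it. A run counted anywhere in the window need not lie in the mRNA, so its length is not that of a TOP tract. Runs of 6 or more were present in 22 of 43 genes that fell in WT, 4 of 6 that rose and 8 of 10 that did not pass (Rpl3l was not tested), with median lengths of 6.0, 6.5 and 9.0 letters. In the 300 bases from 250 before to 50 after the start, read on both strands, the ETS motif CCGGAAG was found in 24 of 60 genes (40.0%) and in 8.86% of all promoters. The YY1 core ATGGCG was found in 16 of 60 (26.7%, beside 8.93%), the SP1 box GGGCGG in 35 of 60 (58.3%, beside 35.7%) and the TATA box TATAAA in 5 of 60 (8.33%, beside 13.6%). Matches of different motifs were counted separately and may overlap. A match says only that the letters are there.

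Levels differed widely among the genes. Per kilobase of the annotated principal transcript and averaged over the 16 libraries, Rps27 was the highest at 5375 CPM per kilobase, followed by Rplp1 at 4769, Rps29 at 4069.8, Rps12 at 3826 and Rps18 at 3739.8. The lowest were Rps27l at 113, Rpl6l at 4.48, Rpl39l at 1.47, Rps4l at 1.12 and Rpl3l at 0.00797 CPM per kilobase. The order at the top differed between the states. Rps27 was at 8103 CPM per kilobase in WT Tn and 2074 in WT Treg. In WT Treg many of the genes lay above Rps27, and the highest were Rps12 at 4021, Rplp1 at 3438, Rpl41 at 3146 and Rps18 at 3034. Rplp1 and Rps29 stayed among the 5 highest when the union of all exons or the longest transcript was used as the length, while the place of Rps27 fell to 11 and 9, that of Rps12 to 34 and 50 and that of Rps18 to 37 and 24, so the order at the top depends on the transcript chosen. The lowest 5 were the same 5 genes under all 3 lengths. Rpl6l, annotated as a processed pseudogene, was at 3.42, 3.24, 3.50 and 4.26 CPM in WT Tn and 3.81, 3.62, 3.02 and 4.96 CPM in WT Treg, which overlapped.

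Between the genotypes no ribosomal protein gene passed the test in either state. In Tn cells 0 of 81 were called by edgeR (Benjamini-Hochberg adjusted p), DESeq2 or limma-voom, beside 0.134% of 13441 genes called higher and 0.0967% lower by edgeR, and 6 of 81 had an unadjusted p under 0.05 where 10.3% of all genes did. The log2 fold change lay above 0 for 80 of the 81, beside 52.7% of all genes, with a median of 0.16. In Treg cells 0 of 81 were called by any of the 3 tools, beside 0.129% and 0.0908% of 13221 genes, and 4 of 81 had an unadjusted p under 0.05 beside 2.30% of all genes. The log2 fold change again lay above 0 for 80 of 81, beside 49.4% of all genes, with a median of 0.06. The genes share their libraries, so these counts are not counts of independent results.

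The level of the whole set in Aim2-/- Tn depended on the libraries. Relative to the mean over the 8 Tn libraries, the median deviation of the ribosomal protein genes on the scale of log2(CPM + 0.5) was 0.02, -0.01, -0.12 and -0.17 in WT Tn replicates 1 to 4 and 0.10, -0.19, 0.30 and 0.07 in Aim2-/- Tn. Replicate 3 was the highest and replicate 2 the lowest of all 8, and both were Aim2-/-. Within replicates 1 and 2 the median log2 fold change was -0.04, with 26 of 80 genes above 0, and within replicates 3 and 4 it was 0.33, with 80 of 80 above 0. The split follows the replicate numbers in the titles, whereas the deposited tables of Aim2-/- Tn and of both Treg groups carry other numbers in their names, and no ribosomal protein gene was called in either part. Without Aim2-/- Tn replicate 3 the median was 0.08, and without replicate 2 it was 0.22. In Treg cells the deviations were smaller, at 0.00, -0.02, -0.08 and -0.01 in WT and 0.02, 0.03, 0.05 and 0.03 in Aim2-/-, and the genotypes did not overlap.

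Transcript length moved with these values. Among genes outside the list, 827 with a coding transcript under 1000 nucleotides had a median log2 fold change of 0.17 in Tn and 4958 with 3000 nucleotides or more had -0.08, and in Treg the medians were 0.06 and -0.04. The ribosomal protein transcripts are short, with a median length of 705 nucleotides. After a correction for GC content and length in each library, the median of the ribosomal protein genes was 0.05 in Tn, with 60 of 81 above 0, and 0.00 in Treg, with 51 of 81 above 0. The summed erythroid markers were between 0.949 and 2.66 CPM in WT Tn and between 3.38 and 5.12 CPM in Aim2-/- Tn. The B cell markers summed to 1.07 to 1.60 CPM in WT Tn and 1.5 to 2.27 CPM in Aim2-/- Tn, and among them Cd79a ranged from 0.614 to 0.909 CPM and from 1.13 to 1.73 CPM, without overlap (log2 fold change 0.79, edgeR adjusted p = 0.4). The myeloid sum was 12.1 to 19.6 and 13.1 to 14.8 CPM, the CD8 sum 8.94 to 12.2 and 9.23 to 11.6 CPM, and the NK sum 1.78 to 6.42 and 1.58 to 7.32 CPM. The part of these markers in the result was not tested. Mitochondrially encoded genes held between 1.10% and 1.56% of counts in WT Tn and between 1.18% and 2.11% in Aim2-/- Tn, with the highest share in replicate 2, and their part was not tested either.

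**Figure D5:**
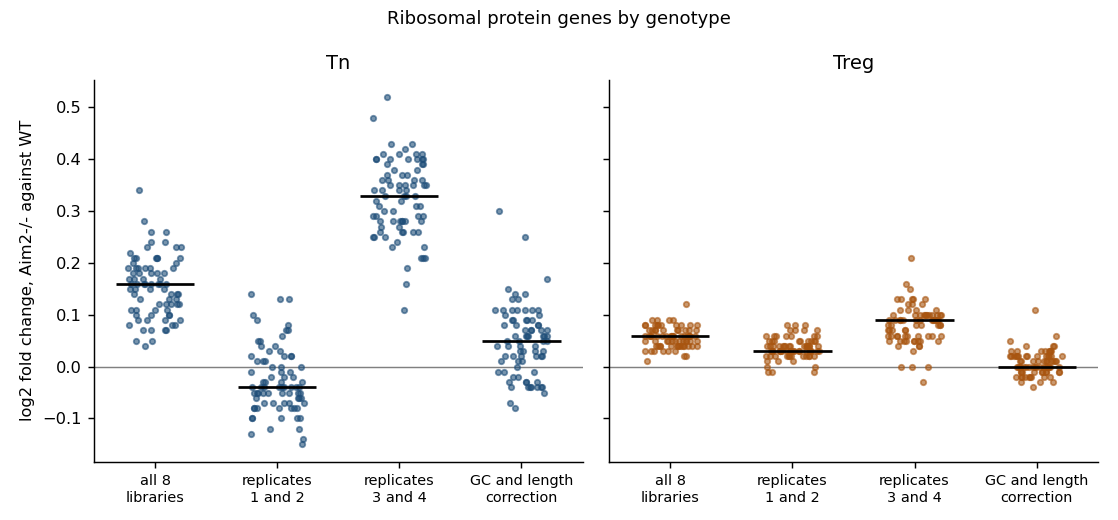
Log2 fold change of Aim2-/- against WT in Tn (left) and Treg (right), with a point for each of 79 ribosomal protein genes and a line at their median, for all 8 libraries, for replicates 1 and 2, for replicates 3 and 4 and after correction for GC content and length. Rps4l and Rpl39l, with under 80 counts in every library, are left out. The Tn values lie from -0.15 to 0.14 within replicates 1 and 2 and from 0.11 to 0.52 within replicates 3 and 4.

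Rpl27a had the smallest p between the genotypes in Tn. Rpl27a, a large-subunit protein, was at 1171, 1206, 1096 and 1134 CPM in WT Tn and 1409, 1184, 1786 and 1441 CPM in Aim2-/- Tn. A single Aim2-/- library, replicate 2, lay within the range of WT, and the log2 fold change was 0.34 (standard error 0.12, edgeR adjusted p = 0.42). Rplp2 was at 1544, 1659.7, 1433 and 1525 CPM in WT Tn and 1787, 1688, 2206 and 1762 CPM in Aim2-/- Tn, where the groups did not overlap but the test was not passed (log2 fold change 0.28, edgeR adjusted p = 0.42). Rpl38, known for patterning of the mouse skeleton through selective translation, was at 701, 706, 627 and 663 CPM and 749, 712, 935 and 811 CPM, again without overlap (log2 fold change 0.26, edgeR adjusted p = 0.43). Rps4l had the largest value, 0.78 (standard error 0.27, edgeR adjusted p = 0.42), on 9 to 28 counts in a library. Rps13, Rps21, Rpl36al and Rpl18 had log2 fold changes of 0.24, 0.26, 0.24 and 0.21 with edgeR adjusted p of 0.46, 0.46, 0.49 and 0.5. Groups did not overlap for 3 of 81 genes in Tn (Rplp2, Rpl38 and Rps4l), all higher in Aim2-/-, beside 3.36% of all genes higher and 3.59% lower.

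In Treg cells the differences were small and lay above 0 for 80 of 81 genes. The groups did not overlap for 23 of 81 genes, all higher in Aim2-/-, beside 1.29% of all genes higher and 0.968% lower. Rpl18, a large-subunit protein, was at 1112, 1089, 1037 and 1094 CPM in WT Treg and 1140.4, 1157, 1178 and 1159.5 CPM in Aim2-/- Treg, a log2 fold change of 0.09 (standard error 0.034, edgeR adjusted p = 1). Rps16 was at 1289, 1243, 1199.7 and 1253 CPM and 1331, 1318, 1341 and 1317 CPM (log2 fold change 0.08, edgeR adjusted p = 1). For both, every Aim2-/- library lay above every WT library, and neither passed the test. Rps27a, Rpl3, Rpl8, Rps20, Rpl10a and Rpl27a had log2 fold changes from 0.07 to 0.08, each with an edgeR adjusted p of 1.

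Whether the genotype effect depended on the state was tested as an interaction over all 16 libraries. Of 81 genes 0 were called by edgeR, DESeq2 or limma-voom, beside 0.0205% of 14669 genes called by edgeR, and 0 of 81 had an unadjusted p under 0.05 in edgeR where 3.49% of all genes did. The value lay below 0 for 77 of 81 genes, beside 7341 of all 14669 genes, with a median of -0.09. Outside the list, 913 genes with a coding transcript under 1000 nucleotides had a median of -0.1, with 274 above 0. Those with 3000 nucleotides or more had a median of 0.06. After the correction for GC content and length, the median of the ribosomal protein genes was -0.02, with 26 of 81 above 0. Without the correction, their median was -0.01 when Aim2-/- Tn replicate 3 was left out. It was 0.09 within replicates 1 and 2 and -0.24 within replicates 3 and 4. Rpl27a, Rplp2, Rps13, Rpl38 and Rps21 had the smallest p, with -0.25, -0.18, -0.17, -0.17 and -0.17 on the log2 scale and an edgeR adjusted p of 1 each. For Rps27 the interaction was -0.13 (standard error 0.13) and for Rps27l -0.03 (standard error 0.16), and neither passed the test (edgeR adjusted p = 1 and 1).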

How the data were processed

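The authors prepared stranded mRNA libraries, sequenced 51-nt single-end reads, aligned them with STAR and quantified genes with RSEM on GRCm38, and deposited an expected count per gene and library, neither normalized nor filtered. Tool versions and the strand setting are not given in the sources used here. Deposited expected counts were rounded to whole numbers. Genes reaching 10 counts in 4 or more compared libraries were tested with edgeR 4.0.16 (robust two-sided quasi-likelihood F test, TMM) on the 8 libraries compared, or on all 16 for the interaction, with Benjamini-Hochberg adjustment over all genes tested and a threshold of 0.05. The study's own test, limma-voom (limma 3.58.1), and DESeq2 1.42.0 were alternatives. CPM values use TMM factors. Standard errors given with edgeR were obtained as the absolute log2 fold change divided by the square root of the F statistic. Coordinates, transcript lengths and GC content came from GENCODE M21 (GRCm38), in which all 82 genes had an entry, and the length was that of the shortest principal transcript (80 of the 82 had one), chosen after the annotation was read. The members and lists were chosen with earlier results of these data known, so no p is given for a sum or a list. Counts were not whole in all 16 libraries for 62 of the 82 genes, and 198 pseudogene rows named after a member had counts. The fits for genotype in Tn and culture in WT were tried on simulated data, with changes larger than the median genotype differences seen here. Smaller changes and the interaction were not simulated, so the power to call them is not known.

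Named genes were Aim2, the paralogues, the 8 largest increases and decreases on culture in WT with their Aim2-/- values, the 8 smallest p in each genotype comparison and the 5 smallest in the interaction, the 5 highest and lowest levels per length, the stalk, small-RNA and ubiquitin-fusion genes, and the extremes of each further list. Others are said to have been named after their values were seen. Some genes of these lists are not reported here by name. Alternatives were RLE size factors, library totals, TMM without the members, other filters on low counts, all 16 libraries in one fit, the replicate block, a GC and length correction (splines with 5 degrees of freedom), pseudogene counts added to the parent gene, each library left out in turn, and replicates 1 and 2 or 3 and 4 alone. Figures were drawn with matplotlib 3.10.9.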

Additional observations from a re-analysis of the deposited data

Results flagged for a closer look

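In 144 checks of a named gene within a group of 4 libraries, 7 had a library whose gap to its neighbour was a large part of the whole range (Dixon's 95% limit), and chance flags about 1 in 20. Aim2 was at 9.26 CPM in Aim2-/- Tn replicate 1, above the other 3 libraries of its group, and still far below WT. In WT Treg replicate 3, Rpl38 at 399.6 CPM, Rpl8 at 1658 CPM and Rps27a at 1460 CPM were below the rest of their group. Rps24 was at 1722 CPM in WT Treg replicate 1, above its group, and Rps13 at 1017 CPM in Aim2-/- Treg replicate 3, above its group. Rps4l was at 0.676 CPM in Aim2-/- Tn replicate 3, below its group.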

How the results depend on the processing

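The number of ribosomal protein genes called between genotypes, or in the interaction, was 0 under every alternative run, and 49 to 66 fell on culture in either genotype. In WT, 11 rose with DESeq2, with RLE size factors, with library totals and with the GC and length correction, and 4 with all 16 libraries in one fit. In Aim2-/-, 10 rose with the GC and length correction and 9 with that correction and the replicate block. The correction moved the median on culture to -0.35 in WT (-0.34 with the block) and -0.32 in Aim2-/- (-0.32 with the block), and the genotype median in Treg to 0.00 (0.00 with the block). Within replicates 1 and 2 the genotype median in Tn was -0.04 and the interaction median 0.09, and within replicates 3 and 4 they were 0.33 and -0.24, with 0.09 for genotype in Treg. The cause was not tested.

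In Aim2-/- on culture, Rps4l had -0.11 within replicates 1 and 2, and Rps12 -0.03 and Rpl24 -0.01 within replicates 3 and 4. Without Aim2-/- Tn replicate 2, Rpl41 had -0.01 and Rpl24 -0.02, with ranges of -0.01 to 0.22 and of -0.02 to 0.18 over all left-out libraries. In the interaction within replicates 1 and 2, Rps13 had 0.00 and Rps21 0.04. Without mitochondrially encoded rows the share was 11.0% in WT Treg and 11.3% in Aim2-/- Treg. Of the 5 highest genes per length, 2 were kept with the union of exons and 2 with the longest transcript.

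Leaving out each library in turn gave 6 to 10 genes that rose and 53 to 65 that fell on culture in WT (median -0.58 to -0.45), and 2 to 3 and 52 to 66 in Aim2-/- (median -0.71 to -0.51). The genotype median was 0.08 to 0.22 in Tn and 0.04 to 0.07 in Treg, and the interaction median -0.16 to -0.01. Libraries with the same number in their titles were not shown to be paired, with correlations of their deviations from 0.023 to 0.30 in Tn, -0.013 to 0.40 in Treg, -0.021 to 0.13 on culture in WT and -0.035 to 0.094 in Aim2-/-. Libraries of different number were not compared in this way, so these values do not settle whether the libraries were paired. With the replicate block the medians were 0.15, 0.06, -0.52, -0.56 and -0.09 for genotype in Tn and Treg, culture in WT and Aim2-/-, and the interaction, and 6 and 2 genes rose on culture and 59 and 57 fell in WT and Aim2-/-.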
